A study of Mus musculus with 20 samples.

Results

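The genes described here encode the subunits of the mitochondrial respiratory chain and of ATP synthase, in mouse pancreatic ductal adenocarcinoma (PDAC). They were chosen by gene symbol: protein-coding genes of the Ndufa, Ndufb, Ndufc, Ndufs and Ndufv families, the Sdh genes, the Uqcr genes and Cyc1, Cox4 to Cox8, Atp5, and the subunit genes of mitochondrial DNA, leaving out pseudogenes and the Ndufaf assembly factors. This rule matched 99 genes, of which 94 had a value among the 20636 genes of the deposited table and 93 passed the minimum level among 16648 genes tested. Nuclear DNA holds 81 of the 94 and mitochondrial DNA the other 13. The 5 with no value were the tissue-restricted isoforms Cox6a2, Cox7b2, Cox8b and Cox8c and a second gene that carries the symbol Atp5o. The member below the minimum was mt-Atp8.

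RNA was sequenced in bulk from 15 tumours, 5 of each genotype. KPAT tumours carried Trp53fl/fl and Cdkn2A-Arf fl/fl, KAT tumours carried Cdkn2A-Arf fl/fl with no floxed Trp53, and KPT tumours carried Trp53fl/fl with no floxed Arf. All 3 groups also carried a Rosa26 tdTomato reporter on both alleles and Ptf1aCreER, a tamoxifen-activated Cre driven from the locus of an acinar cell transcription factor, so that recombination starts in the enzyme-secreting cells of the exocrine pancreas. Every mouse received 5 mg tamoxifen by gavage on each of 3 days, starting at 8 to 10 weeks of age, and was aged until morbid. Bulk tumour tissue also holds stromal and immune cells of the host. The comparisons ask what loss of Arf adds to loss of Trp53 (KPAT against KPT), how loss of Arf differs from loss of Trp53 (KAT against KPT), and what loss of Trp53 adds to loss of Arf (KPAT against KAT). KPT tumours serve both of the first comparisons, so their results are not independent of each other.

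The libraries held 14696138 to 26248484 reads each, and reads on mitochondrial genes made up 1.07% to 2.42% of them. Trp53 measured 32.9 to 57.2 in KPAT, 99.0 to 148 in KAT and 22.7 to 26.3 in KPT tumours, in the deposited units explained below, and was higher in KAT than in KPT tumours (log2 fold change 2.35 ± 0.15 (SE, adjusted p = 3.10e-07)). It was also higher in KPAT than in KPT tumours (log2 fold change 0.76 ± 0.15 (SE, adjusted p = 0.0056)), although both groups carry the floxed allele. Cdkn2a, counted as one gene with the Ink4a transcript, measured 268 to 907 in KPAT, 150.0 to 689.9 in KAT and 216 to 335 in KPT tumours and did not pass the test in any comparison, so its total does not check the Arf deletion. Stromal and epithelial genes differed with genotype. Of 15 fibroblast genes, 12 were higher in KPAT and 15 in KAT than in KPT tumours, against 9.13% and 15.6% of all genes. Their summed levels were 14135 to 28458 in KPAT, 13896 to 23317 in KAT and 4065 to 9877 in KPT tumours. The summed level of ductal epithelial genes was 10101 to 13080.0 in KPAT, 9037 to 13355 in KAT and 14101 to 24110.0 in KPT tumours. Of these 20 genes, 3 were lower in KPAT and 8 in KAT than in KPT tumours, against 7.4% and 13.3% of all genes. The summed acinar gene level was 19.8 to 810.0 in KPAT, 82.6 to 1266 in KAT and 54.3 to 273 in KPT tumours. No acinar gene of 16 passed the test against KPT tumours with limma, against 16.5% of all genes in KPAT and 28.9% in KAT tumours. At an unadjusted p under 0.05 limma gave 1 of the 16 in KPAT and 0 in KAT tumours. In bulk tissue, fewer cells of a type and less RNA per cell cannot be told apart.

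The respiratory chain passes electrons from NADH (complex I) and succinate (complex II) through ubiquinone to complex III and on to complex IV, which reduces oxygen. Complexes I, III and IV pump protons across the inner mitochondrial membrane, and complex V, the ATP synthase, uses the returning protons to make ATP. Complex II is built entirely from nuclear genes, whereas each of the other complexes joins nuclear subunits, imported from the cytosol, with a few membrane subunits made inside the mitochondrion. Nuclear respiratory factor 1 (NRF1), GABPA (also called NRF2) and YY1 are known to bind the promoters of many of the nuclear genes.

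Nuclear subunit genes were lower in both Arf-deleted genotypes than in KPT tumours. In KPAT tumours 30 of the 93 tested members were lower and 0 were higher (limma, adjusted p under 0.05), against 7.4% lower and 9.13% higher among all 16648 genes. In KAT tumours 53 were lower and 2 were higher, against 13.3% and 15.6% of all genes. The 30 were all nuclear, as were 51 of the 53. The median log2 fold change of the 81 nuclear genes was -0.37 in KPAT and -0.46 in KAT tumours, beside medians of 0.016 and 0.026 over all genes. In each of these comparisons 74 of the 81 had a negative fold change, and 29 members were lower in both. Groups that did not overlap, with every Arf-deleted tumour below every KPT tumour, were seen for 19 members in KPAT tumours (4.93% of all genes) and 24 in KAT tumours (8.38% of all genes), while the opposite order, found in 5.03% and 9.24% of all genes, was seen for 0 and 0 members. edgeR on recovered reads called 29 members in KPAT and 52 in KAT tumours, against 16.2% and 28.1% of all genes. DESeq2 called 42 and 58, against 23.1% and 34.3% of all genes. Among these, edgeR called 1 member higher in KAT tumours, and DESeq2 called 1 higher in KPAT and 2 in KAT tumours.

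Per tumour, the nuclear genes averaged 10.05 to 10.26 in KPAT, 9.98 to 10.36 in KAT and 10.26 to 10.82 in KPT tumours on the log2(normalized count + 1) scale. KPAT 4 lay just below KPT 5, the lowest KPT tumour, KAT 1 lay above KPT 5 and KPT 3, and all other KPAT and KAT tumours were below every KPT tumour. Without KPT 2 and KPT 3, 15 members passed in KPAT and 34 in KAT tumours, against 8.56% and 20.4% of all genes. Of these members, 3 and 6 were mitochondrial genes. Of the members lower in the main fit, 12 of 30 in KPAT and 30 of 53 in KAT tumours were still called lower. The mitochondrial genes of KPT 2 and KPT 3 stood apart, as described below. Leaving out 1 library at a time gave 17 (without KPAT 2) to 40 members (without KPT 5) in KPAT tumours. In KAT tumours it gave 34 (without KAT 3) to 54 (without KPAT 3 or KPAT 5). The share of all genes called also moved, with 10.1% and 16.4% in those KPAT fits. It was 23.1% in KAT tumours without KAT 3, and 28.4% and 29.0% without KPAT 3 or KPAT 5. With the fibroblast level of each tumour as a covariate, 0 members passed the limma test in KPAT and 9 in KAT tumours. In that setting 2 genes of all those tested passed in KPAT tumours, and 5.6% in KAT tumours. At an unadjusted p under 0.05 limma gave 33 members in KPAT tumours. With the ductal level as a covariate, 2 and 10 members passed, all lower. These were 2.15% and 10.8% of members. The like count for all 16648 genes is of those called lower in that setting, 306 and 1279. Genes called in either direction were 4.95% and 18.9%. The median nuclear log2 fold change was -0.47 in KPAT and -0.52 in KAT tumours with the fibroblast covariate, and -0.22 and -0.28 with the ductal covariate. Among macrophage genes 7 of 14 were higher in KPAT and 10 of 14 in KAT than in KPT tumours, against 9.13% and 15.6% of all genes. Their summed levels were 1098 to 2162 in KPAT, 1956 to 3488 in KAT and 841 to 1478 in KPT tumours. The part of macrophage genes in the subunit levels was not tested.

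**Figure D1:**
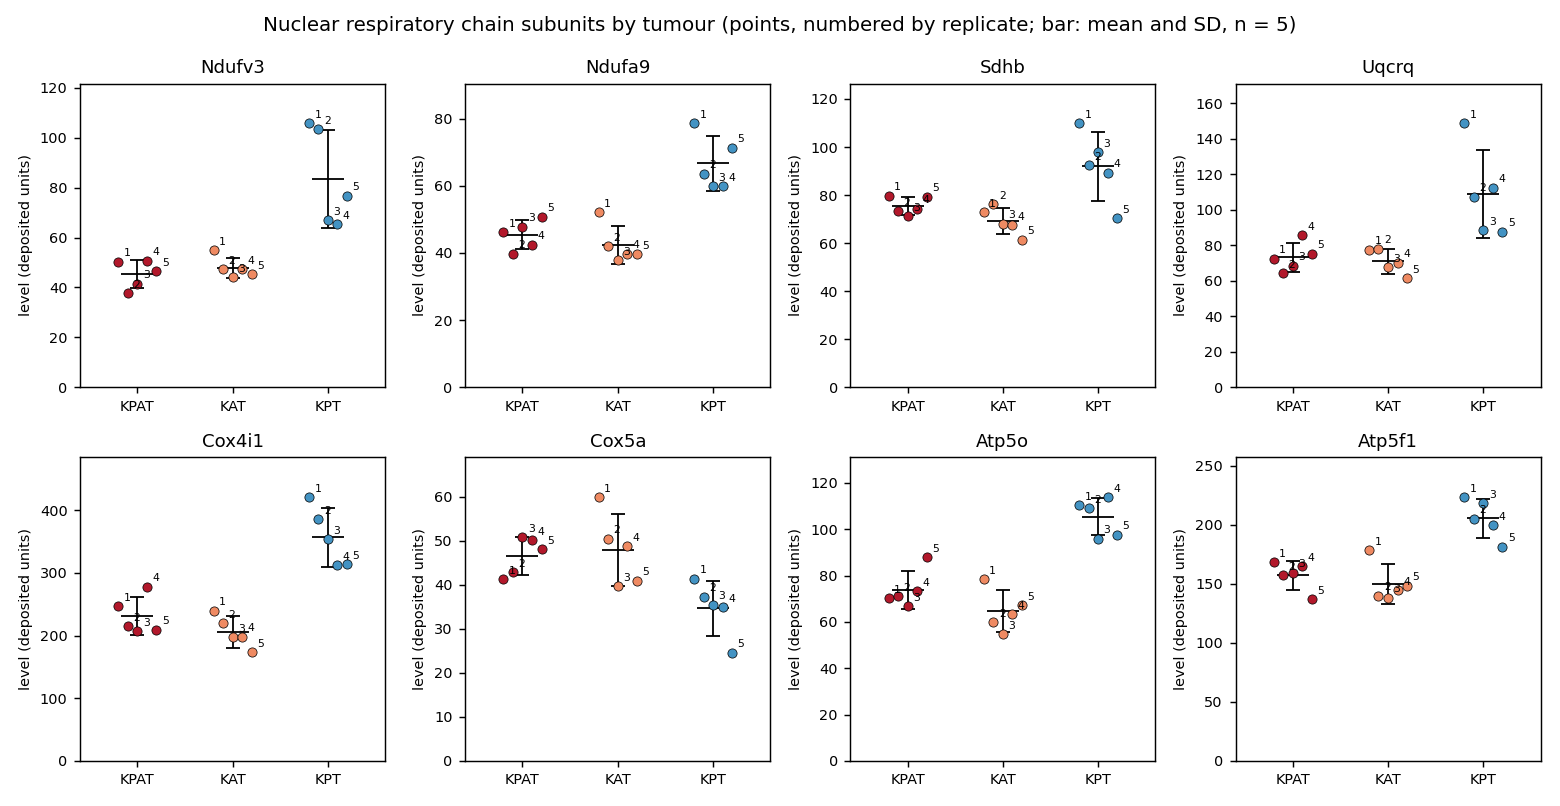
Levels of 8 nuclear subunit genes in each tumour, in deposited units, with 1 point per tumour and bars for the mean and SD of 5 tumours. KPAT and KAT points lie below every KPT point for Ndufv3, Ndufa9, Uqcrq, Cox4i1, Atp5o and Atp5f1, overlap KPT for Sdhb, and lie mostly above KPT for Cox5a.

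Complex I, the NADH dehydrogenase, held the most called members: 18 of its 35 nuclear subunits were lower in KPAT and 25 of 35 in KAT than in KPT tumours. Counts for this complex and its parts stand beside 7.4% of all genes lower in KPAT and 13.3% in KAT tumours. Values in this and the next paragraphs are in deposited units, which are whole reads divided by a factor for each library and lie near the scale of CPM. Ndufv3, an accessory subunit beside the NADH-oxidising module (chr17:31520115-31531331, + strand, GRCm38), measured 50.3, 37.7, 41.4, 50.7 and 46.4 in KPAT tumours, 54.8, 47.2, 44.1, 47.2 and 45.4 in KAT tumours and 105.8, 103, 66.9, 65.2 and 76.7 in KPT tumours. Every Arf-deleted tumour was below the lowest KPT tumour, and KPT 1 and KPT 2 were the highest of all. The log2 fold change was -0.86 ± 0.15 (SE, adjusted p = 0.00325) in KPAT and -0.78 ± 0.15 (SE, adjusted p = 0.00186) in KAT against KPT tumours. Ndufa9, an accessory subunit at the junction of the membrane and matrix arms (chr6:126821721-126849136, minus strand), measured 46.2, 39.8, 47.8, 42.4 and 50.7 in KPAT tumours, 52.2, 42.0, 37.9, 39.8 and 39.7 in KAT tumours and 78.7, 63.6, 59.9, 59.9 and 71.4 in KPT tumours. These groups did not overlap either, and KAT 1 was the highest of the KPAT and KAT tumours. Its log2 fold change was -0.55 ± 0.12 (SE, adjusted p = 0.00811) in KPAT and -0.66 ± 0.12 (SE, adjusted p = 0.00128) in KAT against KPT tumours. Ndufa7, a small accessory subunit, was lower against KPT tumours in both KPAT (log2 fold change -0.62, adjusted p = 0.00745) and KAT tumours (-0.70, adjusted p = 0.00169), averaging 65.7 ± 4.06 in KPAT, 62.7 ± 6.93 in KAT and 103 ± 20.3 in KPT tumours (SD, n = 5 each). Ndufv1, the core subunit that binds NADH and the flavin, averaged 94.9 ± 17.3 in KPAT and 141 ± 19.1 in KPT tumours (log2 fold change -0.57 ± 0.12 (SE, adjusted p = 0.0083)). Ndufa10, an accessory subunit of the membrane arm, averaged 69.7 ± 4.83 in KAT and 109.6 ± 15.7 in KPT tumours (log2 fold change -0.64 ± 0.11 (SE, adjusted p = 0.000807)).

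Calls in complex I fell on both kinds of subunit. The 7 nuclear core subunits, which carry the flavin and the iron-sulfur clusters, included 4 that were lower in KPAT and 5 in KAT tumours. The 28 accessory subunits, which surround and stabilise that core, included 14 and 20. The median fold change of the whole nuclear set of complex I was -0.41 in KPAT and -0.49 in KAT tumours. Members named below only to say where a small count falls were chosen after their values were seen.

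Complex II, succinate dehydrogenase, is also an enzyme of the TCA cycle. In KPAT tumours 0 of its 4 genes passed the limma test, against 7.4% of all genes lower. In that comparison limma gave 1 at an unadjusted p under 0.05. Sdhb, the iron-sulfur subunit, measured 79.6, 73.3, 71.2, 74.3 and 79.3 in KPAT tumours, 72.8, 76.1, 68.0, 67.5 and 61.5 in KAT tumours and 109.9, 92.5, 97.9, 89.2 and 70.4 in KPT tumours. The KPAT and KAT tumours overlapped KPT through KPT 5, which was the lowest tumour but for KAT 3, 4 and 5. Its log2 fold change was -0.27 ± 0.11 (SE, adjusted p = 0.104) in KPAT, which did not pass, and -0.40 ± 0.11 (SE, adjusted p = 0.0151) in KAT tumours. Sdhc, one of the membrane anchors, measured 87.5 to 117 in KPAT, 82.1 to 116 in KAT and 105.7 to 132 in KPT tumours and was lower in KAT tumours (log2 fold change -0.36 ± 0.11 (SE, adjusted p = 0.0272)), with -0.24 ± 0.11 (SE, adjusted p = 0.16) in KPAT tumours. The KAT call of Sdhc was lost in 10 of 37 alternatives, leaving out KAT 2, 3 or 4 or KPT 1 or 5 among them. Sdha, the flavin subunit, measured 189 to 261 in KPAT, 193 to 238 in KAT and 196 to 281 in KPT tumours, with log2 fold changes of -0.089 ± 0.12 (SE, adjusted p = 0.637) in KPAT and -0.054 ± 0.12 (SE, adjusted p = 0.758) in KAT against KPT tumours. Sdhd, the other anchor, gave -0.027 ± 0.12 (SE, adjusted p = 0.899) in KPAT and 0.077 ± 0.12 (SE, adjusted p = 0.65) in KAT against KPT tumours. Sdha and Sdhd did not pass in either comparison.

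Complex III, the cytochrome bc1 complex, had 1 of 9 nuclear genes lower in KPAT and 5 of 9 in KAT tumours. Among all genes 7.4% and 13.3% were lower, so the KPAT count (11.1%) stood near that share. Uqcrq, a small subunit next to cytochrome b (chr11:53427922-53430831, minus strand), measured 72.3, 64.2, 68.4, 85.8 and 75.3 in KPAT tumours, 77.4, 78.1, 67.6, 70.1 and 61.5 in KAT tumours and 149, 107, 88.4, 112 and 87.6 in KPT tumours. All KPAT and KAT values lay below the lowest KPT value, and KPT 1 was the highest tumour. This gave log2 fold changes of -0.55 ± 0.14 (SE, adjusted p = 0.0165) in KPAT and -0.60 ± 0.14 (SE, adjusted p = 0.00621) in KAT against KPT tumours. Uqcr11, another small subunit, averaged 67.2 ± 10.9 in KPAT, 58.7 ± 6.01 in KAT and 99.99 ± 31.6 in KPT tumours (SD, n = 5 each), with -0.53 ± 0.19 (SE, adjusted p = 0.0654) in KPAT and -0.72 ± 0.19 (SE, adjusted p = 0.0117) in KAT against KPT tumours, so that it was lower in KAT tumours alone by this test. Uqcr10, a small subunit near cytochrome c1, gave -0.46 ± 0.17 (SE, adjusted p = 0.0712) in KPAT and -0.55 ± 0.17 (SE, adjusted p = 0.0246) in KAT against KPT tumours and was likewise called in KAT tumours, but not without KAT 3 or KAT 5. Uqcrb, which binds near the quinone site, gave -0.49 ± 0.18 (SE, adjusted p = 0.0787) in KPAT tumours, and Uqcrh, the hinge protein at the cytochrome c1 site, gave -0.53 ± 0.17 (SE, adjusted p = 0.0316) in KAT tumours. The Uqcrh call was lost in 12 of 37 alternatives, leaving out KAT 2, 3, 4 or 5 or KPT 1, 2 or 4 among them. The 2 nuclear subunits that carry electrons, Cyc1 (cytochrome c1) and Uqcrfs1 (the Rieske iron-sulfur protein), did not pass in either comparison. A call in KAT tumours alone is not a difference between KPAT and KAT tumours, which were compared directly below.

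Complex IV, cytochrome c oxidase, had 5 of 16 nuclear genes lower in KPAT tumours, against 7.4% of all genes. In KAT tumours 9 were lower and 2 higher, against 13.3% and 15.6% of all genes. The share of higher genes (12.5%) thus stood near that of all genes. Cox4i1, the common form of the subunit that holds a regulatory ATP site (chr8:120668222-120674207, + strand), measured 247, 215, 207, 278 and 209 in KPAT tumours, 239.6, 219.9, 197, 198 and 173 in KAT tumours and 421, 386, 353, 312 and 314 in KPT tumours. No KPAT or KAT tumour reached the lowest KPT tumour. On the log2 scale it changed by -0.63 ± 0.12 (SE, adjusted p = 0.00558) in KPAT and -0.80 ± 0.12 (SE, adjusted p = 0.000548) in KAT against KPT tumours. Cox7b, a small subunit needed for assembly, gave -0.54 ± 0.15 (SE, adjusted p = 0.021) in KPAT and -0.49 ± 0.15 (SE, adjusted p = 0.022) in KAT against KPT tumours. Cox7a2l, which links complex III and complex IV in supercomplexes, averaged 177 ± 30.99 in KPAT, 171 ± 32.8 in KAT and 253 ± 46.7 in KPT tumours (SD, n = 5 each) and gave -0.51 ± 0.16 (SE, adjusted p = 0.0408) in KPAT and -0.56 ± 0.16 (SE, adjusted p = 0.0178) in KAT against KPT tumours. Its KPAT call was lost in 18 of the 37 alternatives tried, the replicate block, quantile scaling and leaving out KPAT 2, 3 or 5, KAT 4 or KPT 1, 2 or 3 among them, and its KAT call in 6. The KPAT call of Cox7b was lost without KPAT 2, and its KAT call without KAT 3. Ndufa4, which was first described as a complex I subunit and is a subunit of complex IV, gave -0.26 ± 0.15 (SE, adjusted p = 0.249) in KPAT and -0.50 ± 0.15 (SE, adjusted p = 0.0237) in KAT against KPT tumours, and was not called in KAT tumours without KAT 4, KAT 5 or KPT 1.

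Cox5a and Cox6b2 were the members of complex IV called as higher, and of its 5 alternative isoform genes 4 had a negative fold change in KPAT and 3 in KAT tumours. Cox5a, a matrix-side subunit, measured 41.3, 42.9, 50.8, 50.2 and 48.1 in KPAT tumours, 59.99, 50.5, 39.7, 48.7 and 40.9 in KAT tumours and 41.4, 37.3, 35.5, 34.9 and 24.5 in KPT tumours. It was higher in KAT tumours, where KPT 1 overlapped the 2 lowest KAT tumours, and KPAT tumours overlapped KPT 1 only. The log2 fold change was 0.44 ± 0.15 (SE, adjusted p = 0.0524) in KPAT and 0.47 ± 0.15 (SE, adjusted p = 0.0276) in KAT against KPT tumours, and the KAT call was lost in 9 of the 37 alternatives, which include leaving out each library; without KAT 1, KAT 2, KAT 4 or KPT 5 it was lost. Cox6b2, known as the testis form of Cox6b, measured 3.81 to 7.66 in KPAT, 4.22 to 7.30 in KAT and 1.30 to 4.35 in KPT tumours and was higher in KAT tumours (1.09 ± 0.35 (SE, adjusted p = 0.0329)), with 0.98 ± 0.35 (SE, adjusted p = 0.0706) in KPAT tumours. That KAT call was lost in 13 of the 37 alternatives, edgeR, the replicate block and leaving out KAT 3, KAT 4, KAT 5, KPT 3 or KPT 5 among them. Cox7a1, the form of heart and skeletal muscle, measured 0.606, 0.370, 0.926, 0.671 and 0.426 in KPAT tumours, 6.80, 0.988, 0.574, 0.914 and 0.549 in KAT tumours and 5.12, 2.30, 1.19, 2.91 and 1.56 in KPT tumours. Every KPAT tumour was below the lowest KPT tumour, while KAT 1 was above all KPT tumours and KAT 2 to 5 below them. It was lower in KPAT tumours (-1.92 ± 0.60 (SE, adjusted p = 0.0407)), a call lost in 15 of the 37 alternatives, edgeR, a pseudocount of 8 and leaving out any 1 of KPAT 1, 2, 4 and 5, KAT 4 and KPT 1, 2 and 4 among them. It gave -0.96 ± 0.60 (SE, adjusted p = 0.24) in KAT tumours, or -1.58 (adjusted p = 0.0169) without KAT 1. Of 6 tested skeletal muscle genes 2 were also lower in KPAT and 2 in KAT tumours, against 7.4% and 13.3% of all genes. The summed muscle gene levels were 17.7 to 37.3 in KPAT, 15.6 to 22.1 in KAT and 32.8 to 55.3 in KPT tumours. The part of muscle genes in the Cox7a1 result was not tested. Cox4i2, known as a lung form and as induced by low oxygen, gave -0.32 ± 0.50 (SE, adjusted p = 0.695) in KPAT and 0.56 ± 0.50 (SE, adjusted p = 0.422) in KAT against KPT tumours. Ndufa4l2, a hypoxia-induced relative of Ndufa4, gave -0.42 ± 0.51 (SE, adjusted p = 0.612) in KPAT and -0.30 ± 0.51 (SE, adjusted p = 0.687) in KAT against KPT tumours, and neither passed.

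Complex V, the ATP synthase, had 6 of 17 nuclear genes lower in KPAT and 10 of 17 in KAT tumours, against 7.4% and 13.3% of all genes. The peripheral stalk, which holds the catalytic head still while the rotor turns, had 3 of its 4 genes lower in KPAT and 4 of 4 in KAT tumours. Atp5o, the stalk subunit that joins the head (chr16:91925214-91931687, minus strand), measured 70.1, 70.9, 66.9, 73.3 and 88.0 in KPAT tumours, 78.4, 59.95, 54.7, 63.3 and 67.1 in KAT tumours and 110.5, 109, 95.9, 114 and 97.7 in KPT tumours. The groups did not overlap, and the KPT tumours varied little. Atp5o changed by -0.52 ± 0.11 (SE, adjusted p = 0.0083) in KPAT and -0.71 ± 0.11 (SE, adjusted p = 0.000575) in KAT against KPT tumours on the log2 scale. Atp5f1, the long stalk subunit that spans to the membrane (chr3:105942698-105960099, minus strand), measured 168, 157, 159, 165 and 137 in KPAT tumours, 179, 139.7, 138, 144 and 148 in KAT tumours and 223, 205, 218, 199.5 and 181 in KPT tumours. KAT 1 lay just below KPT 5, the lowest KPT tumour, and the other KAT and KPAT tumours lay further down. Its log2 fold change was -0.39 ± 0.097 (SE, adjusted p = 0.016) in KPAT and -0.46 ± 0.097 (SE, adjusted p = 0.00351) in KAT against KPT tumours. Atp5h, a further stalk subunit, gave -0.50 ± 0.11 (SE, adjusted p = 0.00944) in KPAT and -0.52 ± 0.11 (SE, adjusted p = 0.00403) in KAT against KPT tumours. Atp5j2, a small membrane subunit, gave -0.47 ± 0.12 (SE, adjusted p = 0.0182) in KPAT and -0.67 ± 0.12 (SE, adjusted p = 0.00154) in KAT against KPT tumours.

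The 3 genes for the c ring of the rotor, whose products become the same mature protein, held 0 that passed the limma test in KPAT tumours, with 0 at an unadjusted p under 0.05, against 7.4% of all genes lower. In KAT tumours 1 of the 3, Atp5g1, was lower, with 2 at an unadjusted p under 0.05, against 13.3% of all genes. The F1 part has 5 genes, for the catalytic head, which binds ADP and phosphate, and for the central stalk of the rotor. Of these, Atp5c1 was lower in KPAT tumours, and Atp5c1 and Atp5e in KAT tumours, both genes of the central stalk. Atp5a1 and Atp5b, the genes of the head itself, were not called in either comparison. At an unadjusted p under 0.05 limma gave 5 of 5 in KPAT and 4 of 5 in KAT tumours. No test compared the stalk with the other parts of the enzyme.

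**Figure D2:**
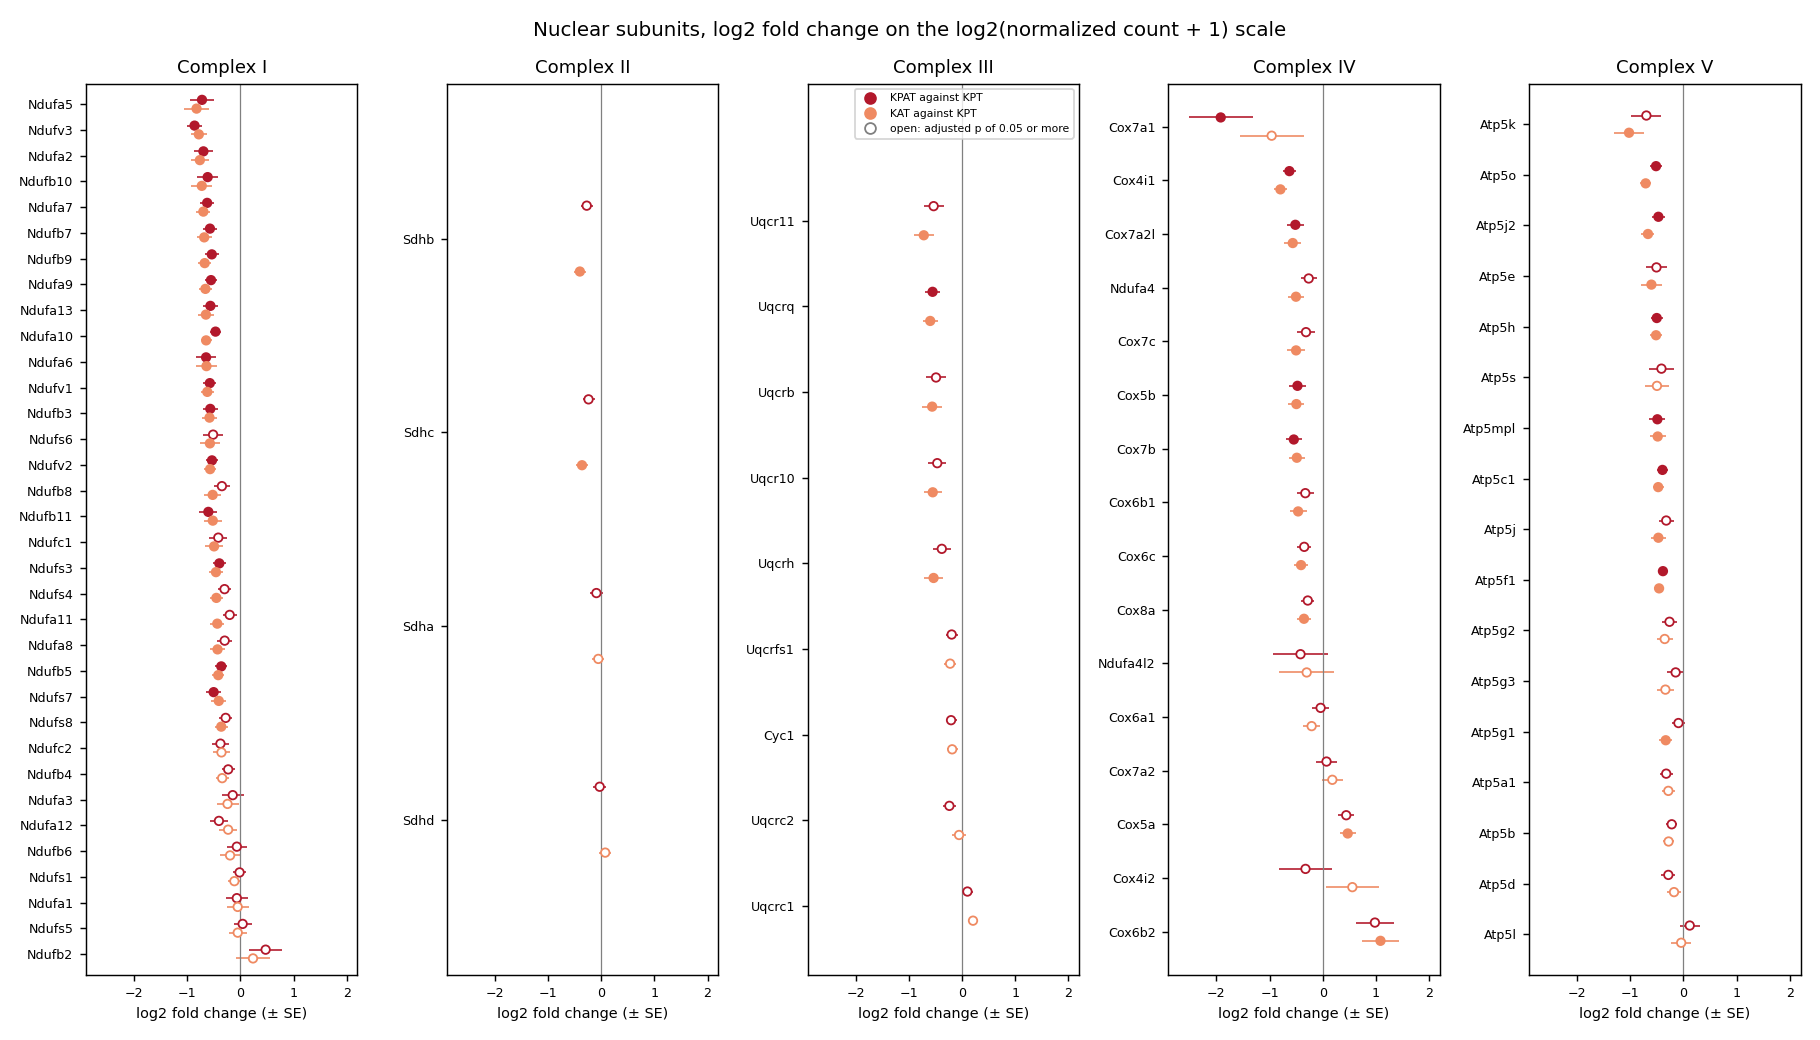
Log2 fold change of 80 nuclear subunit genes, by complex, with bars for 1 SE; KPAT against KPT stands above KAT against KPT for each gene, and filled points have an adjusted p under 0.05. Points lie left of 0 for 73 of these 80 genes in each comparison, with Cox6b2 and Cox5a the genes to the right that passed.

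KPAT and KAT tumours were close to each other in these genes. With limma, 0 of 93 members passed in KPAT against KAT tumours and 0 had an unadjusted p under 0.05, and edgeR and DESeq2 each called 0. Among all genes 0.0481% passed in this comparison (0.012% lower and 0.036% higher), so a count of 0 stands near that background. KPAT and KAT tumours did not overlap for 0 members in the lower and 0 in the higher direction, against 1.3% and 1.42% of all genes. The median fold change of the nuclear genes was 0.073, and single members ranged between -0.96 and 0.64. The lowest adjusted p was 0.484. The highest fold change was that of mt-Atp6 (0.64 ± 0.32 (SE, adjusted p = 0.493)). A p that misses the threshold does not show that the 2 genotypes have the same levels.

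Many nuclear members are short genes or have processed copies elsewhere in the genome, so both properties were set beside the calls. Among all tested protein-coding genes with an exonic length up to the nuclear members' median of 1587 bases, 12.5% were lower in KPAT and 22.5% in KAT tumours. Of the nuclear members at or under that length 14 of 41 and 27 of 41 were lower, and of the longer ones 16 of 40 and 24 of 40. After a correction for exonic length in each library, 28 members were lower and 2 higher in KPAT tumours, and 42 lower and 2 higher in KAT tumours. In that setting 1468 and 2597 of 16615 genes were lower, and 17.0% and 29.8% were called in either direction. Of the 50 nuclear members that share under 10% of their 31-base words with other annotated genes, 17 were lower in KPAT and 29 in KAT tumours. Of the 31 that share more, 13 and 22 were lower.

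Promoter sequence was examined for the nuclear genes, of which 30 were lower in KPAT and 51 in KAT tumours. Of the 81, 64 matched a RefSeq promoter (GRCm38.p6), from 250 bases before to 50 after the start. Letters of 3 motifs were searched on both strands: GCGCATGCG for NRF1, whose letters on the other strand overlap its own, CCGGAAGT for GABPA, and AAGATGGC for YY1. A gene was counted if any of its listed promoters held the letters. NRF1 letters were present in 8 members (12.5%, against 1.95% of 27025 gene symbols with a promoter), GABPA letters in 5 (7.81%, against 4.31%) and YY1 letters in 9 (14.1%, against 3.19%). At least 1 of the 3 was present in 21 members (32.8%, against 8.94%). Among the 42 matched members that were lower in KAT tumours, 16 held a motif, and among the other 22, 5 did. A match in this window is a description of the sequence and not a binding site.

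The 120 bases before the start are shown for the member of complexes I, III and V that had the smallest p in KAT tumours among those with a motif there; no member of complex IV met this rule. Capitals mark the NRF1 letters in Ndufa11, where matches on both strands overlap, and the GABPA letters in Uqcr11 and Atp5h. Ndufa11, which encodes a membrane-arm accessory subunit, lies at chr17:56717642-56717761 on the + strand, Uqcr11 at chr10:80406822-80406941 on the minus strand and Atp5h at chr11:115419920-115420039 on the minus strand.
Ndufa11: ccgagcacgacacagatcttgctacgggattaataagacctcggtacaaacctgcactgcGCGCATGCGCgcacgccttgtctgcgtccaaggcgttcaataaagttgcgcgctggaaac
Uqcr11: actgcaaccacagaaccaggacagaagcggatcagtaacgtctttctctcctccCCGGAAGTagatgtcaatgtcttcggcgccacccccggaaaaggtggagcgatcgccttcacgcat
Atp5h: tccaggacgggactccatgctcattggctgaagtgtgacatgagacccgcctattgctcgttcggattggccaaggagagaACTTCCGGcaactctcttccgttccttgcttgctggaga
The match in Atp5h is on the opposite strand to the gene, so its capitals read as the reverse complement of the motif. Ndufa11 averaged 39.4 ± 1.68 in KAT and 53.9 ± 9.82 in KPT tumours, with a log2 fold change of -0.43 ± 0.13 (SE, adjusted p = 0.0243).

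The 13 genes of mitochondrial DNA gave few calls, and their measured levels were uneven. Of the 12 that were tested, 0 passed with limma in KPAT tumours, with 3 at an unadjusted p under 0.05, and 2 were lower in KAT tumours. Among all genes 7.4% were lower in KPAT and 13.3% in KAT tumours. Without KPT 2 and KPT 3, 3 were lower in KPAT (mt-Nd4, mt-Co3 and mt-Atp6) and 6 in KAT tumours (the same 3, mt-Cytb, mt-Co1 and mt-Co2). In that setting 648 and 1559 of 16661 genes were lower. These 2 tumours were left out after their mitochondrial levels, the lowest of the KPT tumours on average, were seen. Calls of mitochondrial genes as lower than KPT in this setting therefore follow in part from that choice. With the ductal or the fibroblast covariate 0 passed in KPAT or KAT tumours. Their median log2 fold change was -0.094 in KPAT and -0.29 in KAT tumours. These medians turned with the libraries and covariates used: they were -0.60 and -0.75 without KPT 2 and KPT 3, and 0.32 and 0.28 with the ductal covariate. The difference between the nuclear and mitochondrial medians was not tested. The summed mitochondrial level over the summed nuclear level, on deposited values and not per length, was 1.54 to 2.61 in KPAT, 1.82 to 2.11 in KAT and 1.04 to 2.59 in KPT tumours. KPT 2 and KPT 3 gave the lowest ratios of the 15 tumours.

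Mitochondrial DNA is transcribed as long precursors that are cut into single RNAs, and much of it has copies in the nuclear genome. In GENCODE vM21 (GRCm38), 7 annotated copies lie on the minus strand of chromosome 1 within a block of 4663 bases, chr1:24611535-24616197. The block holds copies of mt-Co2, mt-Atp6, mt-Co3 and mt-Nd4l with 0 differences over the copied bases, a copy of mt-Nd3 with 1 difference (T3C, counted from the first base of the gene), the first 876 bases of mt-Nd4 with 0 differences, and bases 1054 to 1545 of mt-Co1 with 6 differences. The bases between the copies of mt-Co2 and mt-Atp6 number 233, as many as between these genes in mitochondrial DNA, where mt-Atp8 lies. The first bases of 2 such pairs are shown, 1 with and 1 without bases that differ. Capitals mark the bases that differ between mt-Co1 (chrM:6381-6440, + strand, from base 1054 of the gene) and its copy Gm29216 (chr1:24616138-24616197, minus strand).
mt-Co1: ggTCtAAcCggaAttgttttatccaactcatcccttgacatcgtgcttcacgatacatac
Gm29216: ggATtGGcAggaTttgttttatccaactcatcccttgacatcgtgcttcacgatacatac
The 6 differences between them, with the mt-Co1 base first, are T1056A, C1057T, A1059G, A1060G, C1062A and A1066T. All 6 lie at the edge of the aligned stretch, and no base differs from there to base 1545. The alignment allowed no gaps, and whether these bases belong to the copy or to sequence beside it was not tested. The first 60 bases of mt-Co3 (chrM:8607-8666, + strand) and of Gm28437 (chr1:24613912-24613971, minus strand) have no differing position.
mt-Co3: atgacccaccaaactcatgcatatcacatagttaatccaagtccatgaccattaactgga
Gm28437: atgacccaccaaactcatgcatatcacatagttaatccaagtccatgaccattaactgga

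Measured levels per kilobase differed widely between these genes. The mean over all 15 tumours was 5148 deposited units per kilobase for mt-Co1, the catalytic subunit of complex IV, 2369.7 for mt-Nd1, at the quinone site of complex I, and 2044 for mt-Cytb, the cytochrome b of complex III. The antiporter-like complex I subunits mt-Nd2, mt-Nd5 and mt-Nd4 had 763, 761 and 714, and mt-Nd6, encoded on the opposite strand, had 567. Of the genes above, mt-Co1 shares 63.9% and mt-Nd4 62.8% of its 31-base words with another annotated gene. Their chromosome 1 copies cover only part of each gene, 492 of 1545 bases of mt-Co1 and 876 of 1378 bases of mt-Nd4. The 5 genes that share over 70% of their words were lower than all of the genes above. Among them, mt-Co2, which takes electrons from cytochrome c, had 76.5, mt-Co3, the third core subunit of complex IV, had 29.0, and mt-Atp6, which forms the proton path of ATP synthase, had 18.8. The complex I genes mt-Nd3 and mt-Nd4l had 2.75 and 2.25 per kilobase. The ATP synthase gene mt-Atp8, which overlaps mt-Atp6, had 0.281 per kilobase and 7.47% of its words shared with annotated genes. Only annotated genes entered that percentage, so unannotated sequence between the chromosome 1 copies of mt-Co2 and mt-Atp6 was not counted. How reads with several places in the genome were counted is not given in the sources used here, and its part in these levels was not tested.

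**Figure D3:**
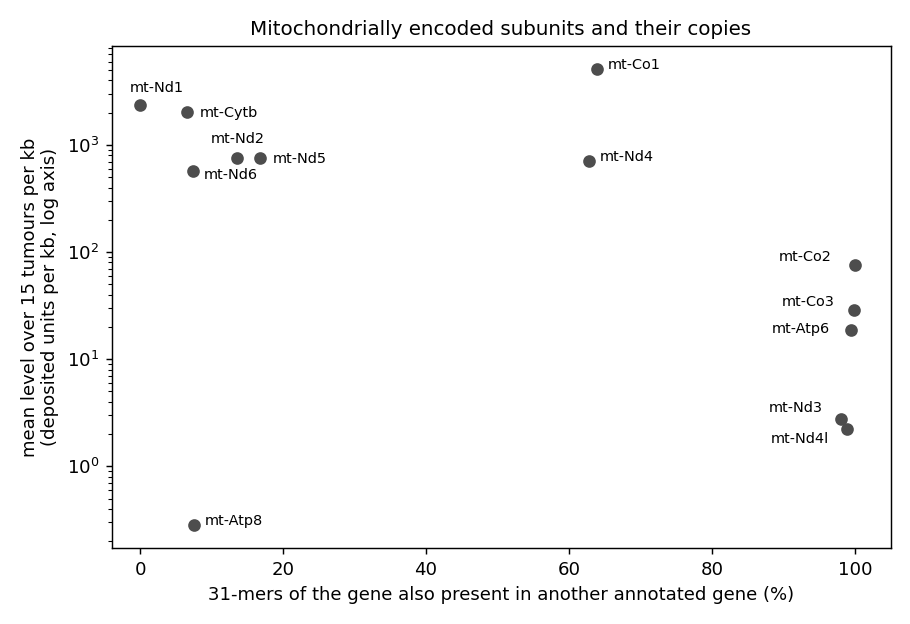
Mean level per kilobase over 15 tumours (log axis) of the 13 mitochondrially encoded genes against the percentage of their 31-base words that occur in another annotated gene. Genes near 100% shared lie between 2.25 and 76.5 deposited units per kilobase, and those under 70% shared lie at 567 or above, except mt-Atp8 at 0.281.

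Among the 7 tested mitochondrial genes under 70% shared, 0 passed the limma test in KPAT tumours, with 1 at an unadjusted p under 0.05, and 0 in KAT tumours, with 0 at an unadjusted p under 0.05. mt-Co1 measured 8157, 5989, 6867, 9875 and 7638 in KPAT tumours, 8884, 6235, 5932, 7022 and 6000.3 in KAT tumours and 12341, 6928, 6044, 10218 and 11167 in KPT tumours. KPT 2 and KPT 3 lay within the range of the other genotypes, and the other 3 KPT tumours lay above it. Its log2 fold changes were -0.24 ± 0.24 (SE, adjusted p = 0.507) in KPAT and -0.42 ± 0.24 (SE, adjusted p = 0.195) in KAT against KPT tumours. mt-Cytb measured 1528 to 2961 in KPAT, 1622 to 2587 in KAT and 1425 to 4264 in KPT tumours (-0.18 ± 0.30 (SE, adjusted p = 0.71) in KPAT and -0.25 ± 0.30 (SE, adjusted p = 0.545) in KAT against KPT tumours). mt-Nd1 measured 1218 to 3626 in KPAT, 1778 to 2460.4 in KAT and 1113 to 4136 in KPT tumours (-0.037 ± 0.35 (SE, adjusted p = 0.956) in KPAT and -0.089 ± 0.35 (SE, adjusted p = 0.87) in KAT against KPT tumours). The 3 groups overlapped for each of these genes. mt-Nd2 gave 0.19 ± 0.33 (SE, adjusted p = 0.724) in KPAT and 0.10 ± 0.33 (SE, adjusted p = 0.839) in KAT against KPT tumours, and mt-Nd4 gave -0.34 ± 0.29 (SE, adjusted p = 0.449) in KPAT and -0.49 ± 0.29 (SE, adjusted p = 0.22) in KAT against KPT tumours. KPT 2 and KPT 3 had the lowest mt-Nd4 of the KPT tumours (630 and 685), so leaving them out raises the KPT mean by choice. Without them, mt-Nd4 was lower in both genotypes, with -0.85 (adjusted p = 0.0401) in KPAT and -1.001 (adjusted p = 0.0109) in KAT tumours. In that setting mt-Cytb, with -0.76 (adjusted p = 0.0416), and mt-Co1, with -0.74 (adjusted p = 0.0401), were also lower in KAT tumours, and the KPAT values were -0.68 (adjusted p = 0.0904) for mt-Cytb and -0.56 (adjusted p = 0.141) for mt-Co1.

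mt-Nd5 and mt-Nd6 were uneven among KPT tumours. mt-Nd5 measured 1915, 1098, 1539.6, 2039 and 1651 in KPAT tumours, 1632, 1184, 1226, 1699.8 and 1541 in KAT tumours and 1548, 250.04, 211, 1373 and 1903 in KPT tumours. KPT 2 and KPT 3 were far below all other tumours, and the remaining KPT tumours lay within the range of KPAT tumours. For mt-Nd5 the log2 fold change was 1.13 ± 0.53 (SE, adjusted p = 0.15) in KPAT and 0.97 ± 0.53 (SE, adjusted p = 0.176) in KAT against KPT tumours, and 0.017 and -0.15 without KPT 2 and KPT 3. mt-Nd6 measured 353, 216, 319.9, 494 and 345 in KPAT tumours, 331, 255, 246, 343 and 304 in KAT tumours and 458, 36.4, 25.3, 314 and 374 in KPT tumours. The same 2 tumours were the lowest. The mean log2 level of mt-Rnr1, mt-Rnr2, Rn7sk, Malat1 and Neat1 was 13.5 in KPT 3, the highest of the KPT tumours, and 11.5 in KPT 2. Its part in these levels was not tested. The log2 fold change of mt-Nd6 was 1.28 ± 0.67 (SE, adjusted p = 0.203) in KPAT and 1.09 ± 0.67 (SE, adjusted p = 0.235) in KAT against KPT tumours, and -0.18 and -0.37 without them. These genes overlap tail to tail, mt-Nd5 at chrM:11742-13565 on the + strand and mt-Nd6 at chrM:13552-14070 on the minus strand, and whether the counting used strand is not given in the sources used here.

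Ratios to mt-Cytb in the same tumour set aside the overall mitochondrial level; they were chosen after the values were seen and are given with no test. mt-Nd5 over mt-Cytb was 0.785, 0.719, 0.796, 0.689 and 0.740 in KPAT, 0.680, 0.715, 0.755, 0.657 and 0.691 in KAT and 0.363, 0.168, 0.148, 0.406 and 0.652 in KPT tumours. Every KPT tumour was below every KPAT and KAT tumour, KPT 5 narrowly. mt-Nd6 over mt-Cytb was 0.141 to 0.167 in KPAT, 0.132 to 0.154 in KAT and 0.0178 to 0.128 in KPT tumours, with the same separation. mt-Nd2 over mt-Cytb was 0.345 to 0.411 in KPAT, 0.337 to 0.416 in KAT and 0.222 to 0.349 in KPT tumours, and here KPT 5 overlapped the other genotypes. For mt-Nd4 over mt-Cytb, 0.377 to 0.474 in KPAT, 0.356 to 0.423 in KAT and 0.4003 to 0.515 in KPT tumours, the groups overlapped. They also overlapped for mt-Nd1 over mt-Cytb, 0.797 to 1.22 in KPAT, 0.787 to 1.49 in KAT and 0.781 to 0.994 in KPT tumours, and for mt-Co1 over mt-Cytb, 3.34 to 3.92 in KPAT, 2.69 to 3.77 in KAT and 2.89 to 4.65 in KPT tumours.

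**Figure D4:**
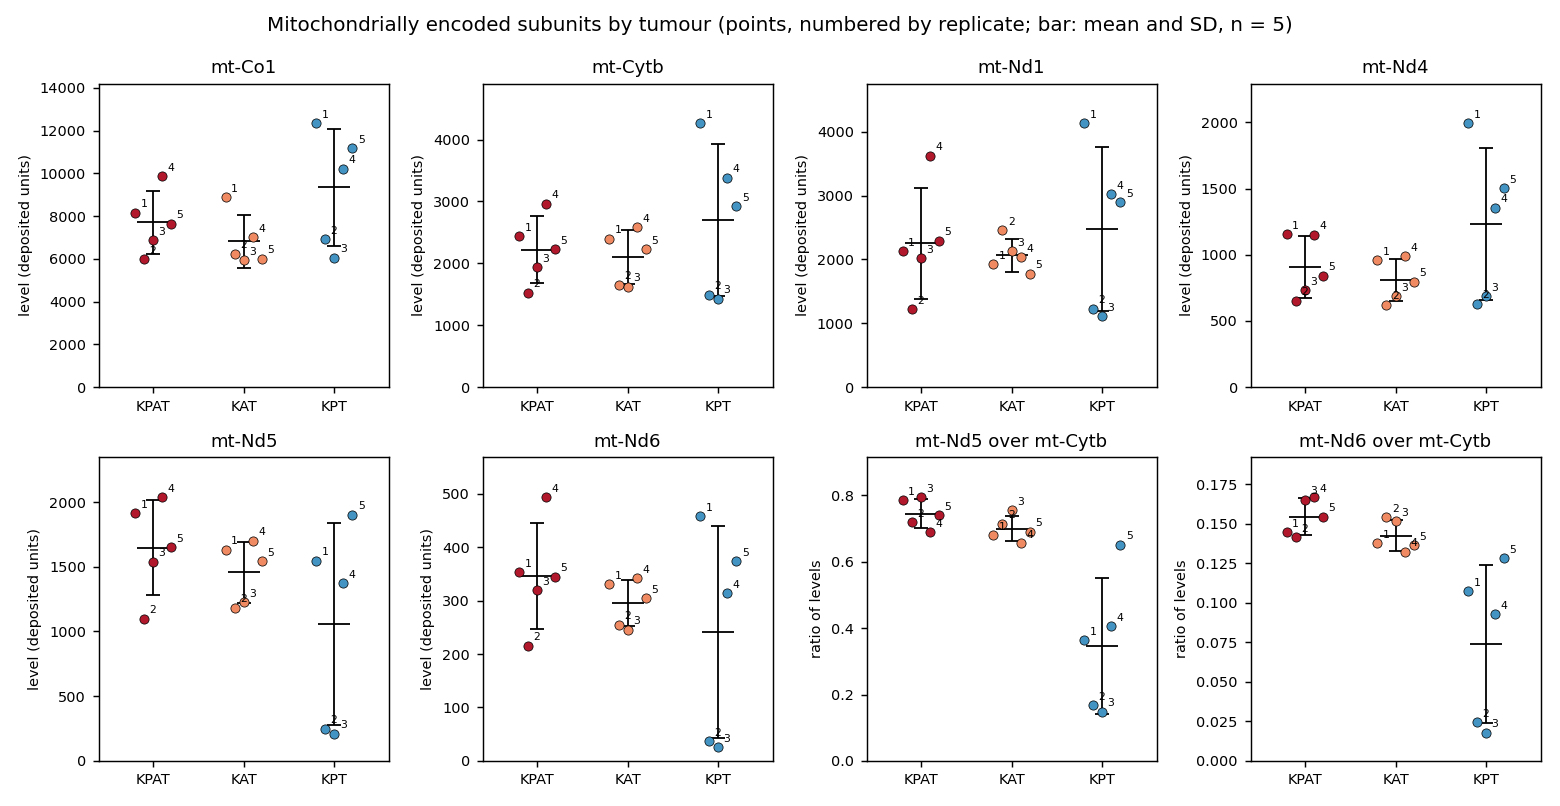
Levels of mt-Co1, mt-Cytb, mt-Nd1, mt-Nd4, mt-Nd5 and mt-Nd6 in deposited units, and the ratios of mt-Nd5 and mt-Nd6 to mt-Cytb, with 1 point per tumour and bars for the mean and SD of 5 tumours. KPT 2 and KPT 3 sit at 250.04 and 211 for mt-Nd5, while all other tumours lie between 1098 and 2039; in the ratio of mt-Nd5 to mt-Cytb, KPT tumours lie between 0.148 and 0.652 and the others between 0.657 and 0.796.

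The mitochondrial genes that passed in KAT tumours were both among those with copies. mt-Co3 measured 21.1, 9.67, 14.8, 25.8 and 17.1 in KPAT tumours, 14.997, 13.8, 12.01, 12.3 and 10.8 in KAT tumours and 33.0, 25.004, 18.5, 25.3 and 87.2 in KPT tumours. Every KAT tumour was below the lowest KPT tumour, KPAT tumours overlapped KPT, and KPT 5 stood far above the rest. The log2 fold change was -0.93 ± 0.35 (SE, adjusted p = 0.0774) in KPAT and -1.33 ± 0.35 (SE, adjusted p = 0.0111) in KAT against KPT tumours, and -0.97 (adjusted p = 0.0115) in KAT tumours without KPT 5. mt-Atp6 measured 10.0, 6.37, 10.2, 18.5 and 10.7 in KPAT tumours, 9.70, 6.48, 5.01, 7.79 and 5.71 in KAT tumours and 35.1, 17.3, 9.55, 17.7 and 21.8 in KPT tumours. KAT 1 overlapped KPT 3, the lowest KPT tumour. This corresponds to log2 fold changes of -0.82 ± 0.32 (SE, adjusted p = 0.0946) in KPAT and -1.46 ± 0.32 (SE, adjusted p = 0.00472) in KAT against KPT tumours. With the reads of their annotated copies added, the KAT values were -1.42 for mt-Co3 and -1.23 for mt-Atp6 (adjusted p = 0.00548 and 0.00498), and mt-Co3 then also passed in KPAT tumours (-1.04, adjusted p = 0.04). Both genes were also called as lower in KPAT tumours with DESeq2, without KPT 3 and without KPT 2 and KPT 3, and mt-Atp6 without KPAT 4. The setting without KPT 2 and KPT 3 was chosen after the mitochondrial levels were seen, as stated above. mt-Co2 measured 32.0 to 91.0 in KPAT, 35.9 to 47.5 in KAT and 36.8 to 76.4 in KPT tumours and gave -0.15 ± 0.25 (SE, adjusted p = 0.72) in KPAT and -0.51 ± 0.25 (SE, adjusted p = 0.143) in KAT against KPT tumours, or -0.87 (adjusted p = 0.0258) in KAT tumours without KPT 2 and KPT 3. mt-Nd3 measured 0.296 to 1.41 in KPAT, 0.329 to 1.00 in KAT and 0.162 to 2.86 in KPT tumours, and mt-Nd4l measured 0.482 to 1.16 in KPAT, 0.418 to 0.890 in KAT and 0.108 to 1.00 in KPT tumours. mt-Atp8 measured at most 0.552 in any tumour and was not tested.

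Calls among genes that build or serve the chain are read against the share of all genes, which was 9.13% higher and 7.4% lower in KPAT, and 15.6% higher and 13.3% lower in KAT tumours. Of 15 assembly factors of complex I, 0 were higher and 1 lower in KPAT tumours, and 1 was higher and 3 lower in KAT tumours. Ndufaf8, the factor called in KPAT tumours, gave -0.67 ± 0.13 (SE, adjusted p = 0.00645) in KPAT and -0.54 ± 0.13 (SE, adjusted p = 0.00846) in KAT against KPT tumours. Ecsit, which acts in complex I assembly and in immune signalling, gave -0.54 ± 0.18 (SE, adjusted p = 0.0568) in KPAT and -0.79 ± 0.18 (SE, adjusted p = 0.00636) in KAT against KPT tumours. Of 20 factors of complex IV 4 were lower in KPAT and 3 in KAT tumours, and of 6 factors of complex III 1 and 3 were lower. Of 4 factors of complex II and 3 of complex V, 0 were called in KPAT tumours by limma, with 0 and 1 at an unadjusted p under 0.05, and 1 of each was lower in KAT tumours. Of 18 genes for ubiquinone synthesis and electron carriers, 1 was higher and 2 lower in KPAT tumours, and 3 were lower in KAT tumours. Coq6, which acts in ubiquinone synthesis, gave -0.61 ± 0.13 (SE, adjusted p = 0.00896) in KPAT and -0.50 ± 0.13 (SE, adjusted p = 0.0138) in KAT against KPT tumours. Of 17 TCA cycle genes, 2 were higher and 2 lower in KPAT tumours, and 2 were higher and 5 lower in KAT tumours. Dlat, of the pyruvate dehydrogenase complex, was higher (0.54 ± 0.13 (SE, adjusted p = 0.0151) in KPAT and 0.57 ± 0.13 (SE, adjusted p = 0.00645) in KAT against KPT tumours), and Suclg2, of succinyl-CoA ligase, was lower (-0.53 ± 0.13 (SE, adjusted p = 0.0137) in KPAT and -0.53 ± 0.13 (SE, adjusted p = 0.00743) in KAT against KPT tumours).

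Of 25 genes that express mitochondrial DNA, 3 were higher and 3 lower in KPAT tumours, and 4 were higher and 6 lower in KAT tumours, while 19 and 15 were not called. The counts of higher genes stood near the shares of all genes given above. Polrmt, the mitochondrial RNA polymerase, was higher (0.52 ± 0.12 (SE, adjusted p = 0.011) in KPAT and 0.55 ± 0.12 (SE, adjusted p = 0.00436) in KAT against KPT tumours), as was Tfb2m, the factor that helps it start (0.56 ± 0.12 (SE, adjusted p = 0.00758) in KPAT and 0.44 ± 0.12 (SE, adjusted p = 0.0123) in KAT against KPT tumours). Of 12 regulators of mitochondrial biogenesis, Yy1 and Gabpb2 were lower in KPAT tumours and Yy1 in KAT tumours. Yy1, the transcription factor whose motif letters were searched above, averaged 91.1 ± 8.85 in KPAT, 90.4 ± 4.19 in KAT and 161 ± 22.5 in KPT tumours (SD, n = 5 each), with log2 fold changes of -0.82 ± 0.11 (SE, adjusted p = 0.00126) in KPAT and -0.82 ± 0.11 (SE, adjusted p = 0.000255) in KAT against KPT tumours. Of 74 mitochondrial ribosomal protein genes, 19 were lower in KPAT and 36 in KAT tumours, with none higher and medians of -0.24 and -0.41. A lower level was not limited to mitochondria: 60 of 80 cytosolic ribosomal protein genes were lower in KPAT and 66 in KAT tumours (medians -0.65 and -0.76), and 15 of 22 glycolysis and hypoxia genes were lower in each (medians -1.05 and -0.99). The part of these groups and of the respiratory chain in each other's levels was not tested.

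**Figure D5:**
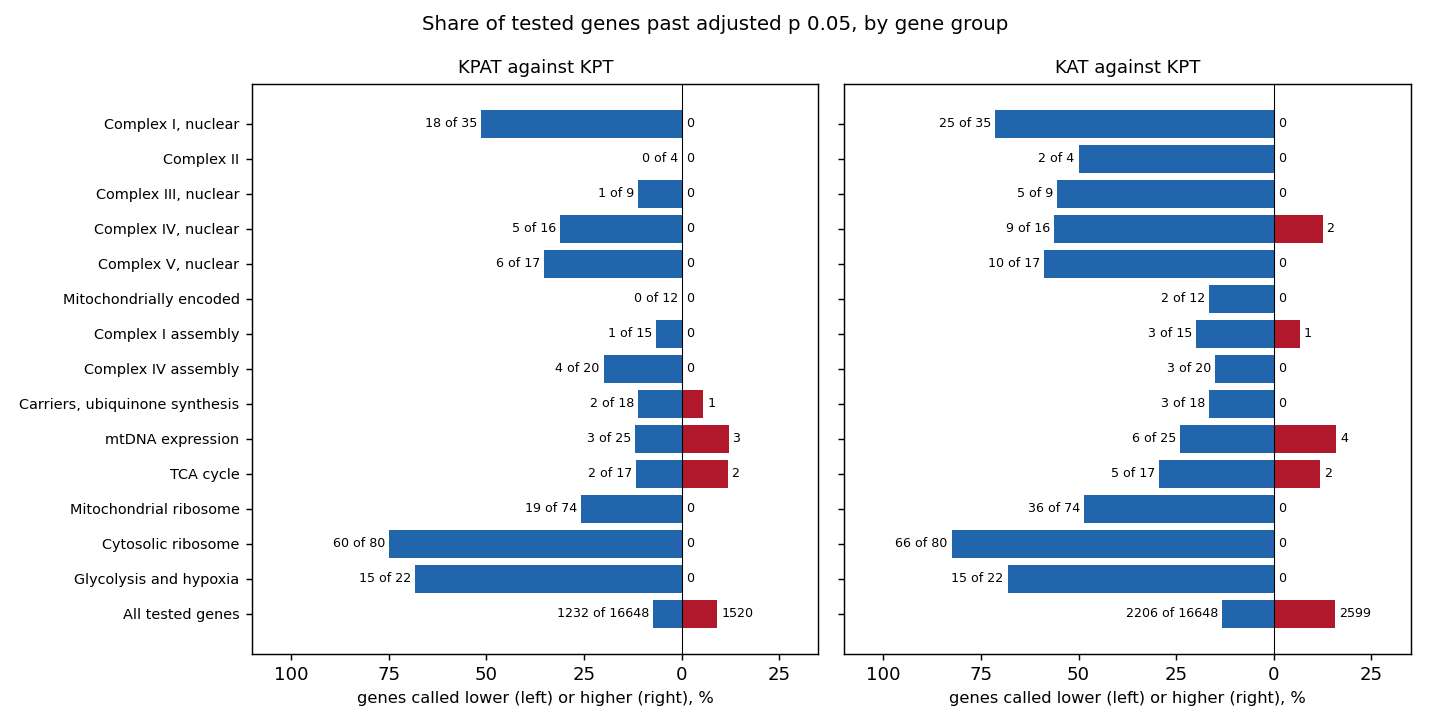
Percentage of the tested genes of each group that were lower (left of 0) or higher (right of 0) at an adjusted p under 0.05, in KPAT against KPT and in KAT against KPT tumours, with all 16648 genes as the background. The label beside each bar gives the number of genes. Nuclear subunits of complexes I, III, IV and V, mitochondrial ribosomal proteins, cytosolic ribosomal proteins and glycolysis genes have more lower than higher genes in both comparisons. The same holds, with fewer calls, for assembly factors of complexes I and IV and for carriers and ubiquinone synthesis.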

How the data were processed

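Total RNA of 15 tumours (5 each of KPAT, KAT and KPT) was extracted with RNeasy midi columns and sequenced from TruSeq libraries on a HiSeq4000, per the labels' protocols. The 5 tumours of the KT group, which carry neither floxed allele, are not analysed here. The submitters' processing notes name HISAT2 2.0.4 and the builds mm10 and GRCm38. Which program counted reads per gene, whether it used strand, how it treated multi-mapping reads and how values were scaled is not given in the sources used here. A signal value per gene and library is what the authors deposited. Judged from the values, each is a whole number of reads divided by a factor for its library: 100% of the values, multiplied back, were whole to within 0.01. Depth recovered this way was 14696138 to 26248484 reads, and low genes carry the most counting error.

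The planned design assumed normalized counts, so every deposited value was multiplied by 19.478, which is how many reads 1 unit stood for in an average library (geometric mean). Genes with a mean under 10 on that scale were left out. limma 3.58.1 (R 4.3.3) fitted a mean per genotype to log2(normalized count + 1) over the 15 libraries, with a trended eBayes prior. Tests were two-sided, and Benjamini-Hochberg adjustment ran over 16648 genes with a threshold of 0.05; a fold change on this scale understates the change of low genes. limma was checked on simulated data. Tumours are separate animals by label number only, and p-values measure the spread between these samples. The libraries of the 3 groups carry numbers that do not overlap, so an order of preparation, if there was one, and genotype cannot be told apart. Spearman correlations over genes were 0.934 to 0.989 within groups and 0.903 to 0.973 between groups. Replicate numbers did not pair the samples. An allele that all groups share and a subunit gene are not reported here.

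Symbols, lengths and shared 31-base words came from GENCODE vM21 (GRCm38), which matched 20574 of 20636 gene IDs, and promoters from RefSeq (GRCm38.p6). Genes named are every mitochondrial member, the Sdh genes, up to 4 members per nuclear complex with the smallest p, isoform genes, and up to 2 genes of each supporting list with the smallest p. The members and lists were chosen with earlier results of these data known. The fit was repeated without each of the 15 libraries and under 18 other settings: pseudocounts of 0.5 and 8, minimum levels, scalings, weights, covariates, length, copies, the replicate block, edgeR 4.0.16 and DESeq2 1.42.0. Another 4 were chosen after seeing the data: the deposited scale, and leaving out KPT 2 and KPT 3, KPT 1 and KAT 1 (of which KAT 1 had the highest acinar level), or KPT 3, KAT 2 and KPAT 5. The last 3 had the highest mean level in their genotype of mt-Rnr1, mt-Rnr2, Rn7sk, Malat1 and Neat1. Tables and plots used Python 3.11.15, pandas 2.3.3, numpy 2.4.6 and matplotlib 3.10.9.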

Additional observations from a re-analysis of the deposited data

Results flagged for a closer look

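Among 150 sets of 5 tumours, 1 set per named member or summed level and genotype, 8 held a tumour that stood apart from the other 4 by Dixon's gap ratio, and chance alone flags about 1 in 20 sets. KAT 1 was the highest KAT tumour in 5 of them. There Cox7a1 measured 6.80 deposited units (others 0.549 to 0.988), Ndufv3 54.8 (others 44.1 to 47.2) and Ndufa9 52.2 (others 37.9 to 42.0). In the same tumour Atp5f1 measured 179 (others 138 to 148) and Uqcrh 126 (others 85.8 to 89.4). KPT 1 was the highest KPT tumour for Uqcr10 at 129.6 (others 66.7 to 82.6) and for mt-Atp8 at 0.552 (others 0 to 0.0540). mt-Co3 measured 87.2 in KPT 5 (others 18.5 to 33.0). All 8 were high values, and no explanation was tested.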

How the results depend on the processing

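The median fold change of the nuclear genes stayed negative in KPAT and in KAT against KPT tumours under all 22 alternatives, and 0 members were called in KPAT against KAT tumours under each. Counts of called members against KPT were less stable (30 in KPAT, 55 in KAT). They were 18 in KPAT tumours with only the groups compared, 15 and 34 without KPT 2 and KPT 3, 15 and 35 without KPT 3, KAT 2 and KPAT 5, 2 and 10 with the ductal covariate, and 0 and 9 with the fibroblast covariate. The share of all genes called in KPAT tumours with only the groups compared was 10.9%. It was 8.56% and 20.4% without KPT 2 and KPT 3, and 10.4% and 24.5% without KPT 3, KAT 2 and KPAT 5. Of all genes, 0.012% and 5.6% passed with the fibroblast covariate, and 4.95% and 18.9% with the ductal covariate. These shares of all genes count both directions. The members called with the ductal covariate, 2.15% and 10.8%, were all lower, and 306 and 1279 of the 16648 genes were called lower there. The other alternatives gave 20 to 42 and 37 to 62 members. At those KPAT ends 11.2% (without KPT 1 and KAT 1) and 23.1% (DESeq2) of all genes passed. At the KAT ends 27.3% (nuclear-sum scaling) and 38.4% (array weights) passed. Without 1 library they were 17 to 40 and 34 to 54, and more than 1.5 times under the main count without KPAT 2 (17), KPT 2 (18), KPAT 3 (19) or KPT 1 (19) in KPAT, and without KAT 3 (34), KAT 5 (36) or KPT 1 (36) in KAT tumours. In the same order, 10.1%, 12.2%, 12.4% and 11.6% of all genes passed in KPAT, and 23.1%, 22.4% and 24.2% in KAT tumours. Scaling to the nuclear sum moved the median of all genes in KAT tumours to 0.12 and the nuclear members' median to -0.37. Same-numbered tumours correlated at -0.13 to 0.22 (KPAT with KPT), -0.065 to 0.25 (KAT with KPT) and -0.21 to 0.058 (KPAT with KAT), so the numbers do not pair them. Of 5 numbers, 1, 2 and 0 correlated best with their own. The replicate block gave 29, 52 and 0 called members, against 13.5%, 25.9% and 0.042% of all genes.

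Fold changes that turned sign were all of members that did not pass, and the cause was not tested. In KPAT tumours without KPT 2 and KPT 3, mt-Nd2 was -0.43, mt-Nd6 -0.18 and Sdhd 0.010. In KAT tumours without them, mt-Nd2 was -0.52, mt-Nd5 -0.15 and mt-Nd6 -0.37. Without KPT 1 and KAT 1, mt-Nd1 was 0.19, mt-Cytb 0.017 and Sdhd 0.033 in KPAT, and mt-Nd1 0.17 in KAT tumours. Without KPT 3, KAT 2 and KPAT 5, mt-Nd2 was -0.0035 in KPAT and -0.019 in KAT tumours. With the ductal covariate, KPAT values were 0.31 for mt-Nd1, 0.27 for mt-Nd4, 0.33 for mt-Cytb, 0.051 for mt-Co1, 0.053 for mt-Co2, 0.12 for Sdhd and 0.22 for Ndufa4l2. KAT values were then 0.28 for mt-Nd1, 0.17 for mt-Nd4, 0.29 for mt-Cytb, 0.011 for Sdha and 0.38 for Ndufa4l2. With the fibroblast covariate, Cox6b2 was -0.043 in KPAT, and Sdhd -0.079 and Cox4i2 -0.037 in KAT tumours. In KPAT tumours mt-Nd1 was 0.033 with array weights and Sdhd 0.013 with the acinar covariate. With the length correction, mt-Nd1 was 0.10, mt-Co2 0.038 and Sdhd 0.072 in KPAT, and mt-Nd1 0.082 in KAT tumours. With nuclear-sum scaling, mt-Nd1 was 0.017 and Sdhd 0.026 in KPAT, and mt-Nd1 0.0027 and Sdha 0.038 in KAT tumours. With quantile scaling, mt-Nd1 was 0.15 and Sdhd 0.040 in KPAT, and mt-Nd1 0.13 and Sdha 0.10 in KAT tumours. mt-Nd2 in KAT tumours was -0.086 with DESeq2 and -0.053 with edgeR. Without 1 library, KPAT values ranged over -0.28 to 0.19 for mt-Nd1, -0.078 to 0.42 for mt-Nd2, -0.38 to 0.017 for mt-Cytb, -0.35 to 0.025 for mt-Co2 and -0.090 to 0.033 for Sdhd. KAT values ranged over -0.33 to 0.14 for mt-Nd1, -0.17 to 0.33 for mt-Nd2, -0.11 to 0.024 for Sdha and -0.75 to 0.0061 for Ndufa4l2.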

Other observations

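Levels of alternative isoforms were set against their common forms within each tumour, as a percentage of deposited values that is not per length and so compares tumours and not the abundance of the paired genes. These ratios are given with no test. Cox6b2, the testis form, was 2.84 to 6.97 in KPAT, 3.08 to 6.96 in KAT and 0.939 to 2.38 in KPT tumours as a percentage of Cox6b1, so every KPAT and KAT tumour lay above every KPT tumour. Cox7a1, the muscle form, was 0.751 to 1.86 in KPAT, 1.09 to 9.30 in KAT and 3.30 to 12.2 in KPT tumours as a percentage of Cox7a2. KAT 1 overlapped the KPT tumours, and all other KPAT and KAT tumours lay below them. Cox4i2 was 0.163 to 0.697 in KPAT, 0.275 to 1.24 in KAT and 0.128 to 0.597 in KPT tumours as a percentage of Cox4i1, and Ndufa4l2 was 3.18 to 11.2 in KPAT, 3.80 to 15.6 in KAT and 2.17 to 14.1 in KPT tumours as a percentage of Ndufa4, with overlapping groups in both.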
